A study of Homo sapiens with 6 samples.

Results

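The clustered replication-dependent histone genes were measured in Caki-1 kidney cancer cells with and without a VHL knockout. Members were chosen by gene symbol alone, taking the systematic names of the clustered H1, H2A, H2B, H3 and H4 genes and leaving out pseudogenes, which gave 66 of the 60708 genes counted. They were 6 genes for H1, 16 for H2A, 17 for H2B, 13 for H3 and 14 for H4, of which 55 lay in the HIST1 cluster on chromosome 6 and 11 in the HIST2 cluster on chromosome 1. Bulk RNA-seq of total RNA had been done on 3 vector control (VC) samples and 3 VHL-KO samples to find out how the transcriptome differed without VHL. Caki-1 is an established human clear cell carcinoma line. The VC cells had a WT genotype and had been infected with the lentiviral CRISPR vector alone. The VHL-KO cells had been infected with lentivirus carrying an sgRNA to VHL, selected with puromycin and, per the methods of the study, grown from single knockout clones, so that loss of VHL and properties of a clone cannot be told apart. Nothing in the sample descriptions says that replicates came from separate cultures, so the p-values measure only the spread between these samples, which may be technical.

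The total count per sample was 31789923, 28463579 and 34881739 in VC and 29139722, 22805385 and 22628246 in VHL-KO, for replicates 1, 2 and 3 in that order here and below. Levels are given as CPM, counts scaled to library size with TMM factors. A count of 3, used as the floor of detection, corresponded to between 0.079 and 0.141 CPM in 1 sample. Every gene that reached 10 reads in any sample entered edgeR's quasi-likelihood test, and those with a Benjamini-Hochberg adjusted p-value under 0.05 were called higher or lower in VHL-KO. Floors and counting intervals cover counting error only.

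VHL, the gene edited in these cells, was at 42.6, 37.8 and 40.1 CPM in VC and at 34.8, 30.4 and 30.5 CPM in VHL-KO samples. The groups did not overlap, but VHL mRNA was present in all 6 samples. The log2 fold change of VHL came to -0.33 (standard error 0.11, Benjamini-Hochberg adjusted p = 0.0109 in the edgeR quasi-likelihood test). The adjusted p was 0.0905 with upper quartile factors, 0.0862 with VC 1 left out and 0.0621 with VHL-KO 2 left out. How an edit would alter the mRNA level was not tested. CA9, a known target of the factors that VHL degrades, had 0, 0 and 2 reads in VC samples and 288, 247 and 233 reads in VHL-KO samples, a ratio of 562 with a counting interval from 155 to 4646.

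Of 8 genes taken here as markers of kidney epithelial or kidney cancer cells, 7 could be tested. Of these 4 were called higher and 1 lower, beside 28.5% and 31.2% of all tested genes. VIM, the most abundant, was not called, PAX8, KRT8, KRT18 and CA9, which is in this list too, were higher, and EPCAM, with 4 to 56 reads per sample, was lower. CDH1 had 0, 3 and 1 reads in VC samples and 0 in each VHL-KO sample. The summed level of the 8 markers was 7826, 8766 and 7590 CPM in VC and 8624, 8053 and 8395 CPM in VHL-KO samples, with overlap. Most of this sum was VIM, at 6218, 6944 and 6137 CPM in VC and 6354, 5866 and 6193 CPM in VHL-KO samples. PAX8, KRT8 and KRT18 were each higher without overlap. Markers of blood, endothelial and stromal cells summed to 45.1, 49.1 and 38.5 CPM in VC and to 34.5, 32.7 and 29.5 CPM in VHL-KO samples. Of these 8 genes 4 could be tested, with CD14 and PECAM1 higher and PDGFRB and COL1A1, the most abundant, lower. Over all tested genes 59.7% were called in either direction. PTPRC, CD3E, CDH5 and DCN had at most 2 reads in any sample. The part of these markers in the histone values was not tested.

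Core histones H2A, H2B, H3 and H4 form the protein spool of the nucleosome, and the linker histone H1 binds where DNA enters and leaves it. The clustered genes supply new histones for DNA made in S phase, and their mRNAs typically end in a conserved stem-loop, bound by SLBP, in place of a poly(A) tail. Several of these genes are also known to give polyadenylated mRNAs from sites past the stem-loop, above all in cells that have left the cell cycle.

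The stem-loop is shown because every member carried it and because it separates the annotated 3′ ends described below. The histone 3′ stem-loop consensus, 16 bases with a stem of 6 base pairs and a loop of 4 bases, was searched in the 300 bases after each stop codon on the coding strand of GRCh38, with genes from GENCODE release 44. It was found in 66 of 66 members and in 9 of 19858 other coding genes (0.0453%), and 10 distinct sequences occurred. The sequences below are given 5′ to 3′ as DNA, with the loop in capitals. The most frequent was that of H1-2 at chr6:26055744-26055759 on the minus strand, shared by 38 members of H1, H2A, H2B and H3. The sequence of H2BC12, at chr6:27146366-27146381 on the minus strand, was shared by 9 members and differs in the loop. H4 genes had a stem of their own with different loops, the sequence of H4C8, at chr6:26285131-26285146 on the minus strand, in 9 genes and that of H4C14, at chr1:149833032-149833047 on the plus strand, in 4. Those of H3C6 (chr6:26225596-26225611), H2AC11 (chr6:27133515-27133530) and H2AC20 (chr1:149887391-149887406), all on the plus strand, were each found in no other member.
H1-2: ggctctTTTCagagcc
H2BC12: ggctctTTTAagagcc
H4C8: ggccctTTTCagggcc
H4C14: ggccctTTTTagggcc
H3C6: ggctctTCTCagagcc
H2AC11: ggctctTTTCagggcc
H2AC20: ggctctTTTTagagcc

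The summed mRNA level of the clustered histone genes was higher in VHL-KO cells. The 66 genes together were at 81.2, 93.9 and 79.7 CPM in VC and at 239.5, 232 and 231 CPM in VHL-KO samples. Every VHL-KO sample was above every VC sample, and the means were 84.9 ± 7.83 and 234 ± 4.49 CPM (SD, n = 3 each), a ratio of 2.76. In bulk RNA, more cells that express a gene and more RNA per cell cannot be told apart. The H1 sum was 4.30-fold higher, the H2A sum 2.72-fold, the H2B sum 2.50-fold, the H3 sum 2.01-fold and the H4 sum 1.505-fold, and the groups did not overlap in any class. The HIST1 sum was 2.84-fold higher without overlap. The HIST2 genes summed to 4.45, 7.34 and 3.79 CPM in VC and 8.27, 8.39 and 6.94 CPM in VHL-KO samples, and these groups overlapped.

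**Figure D1:**
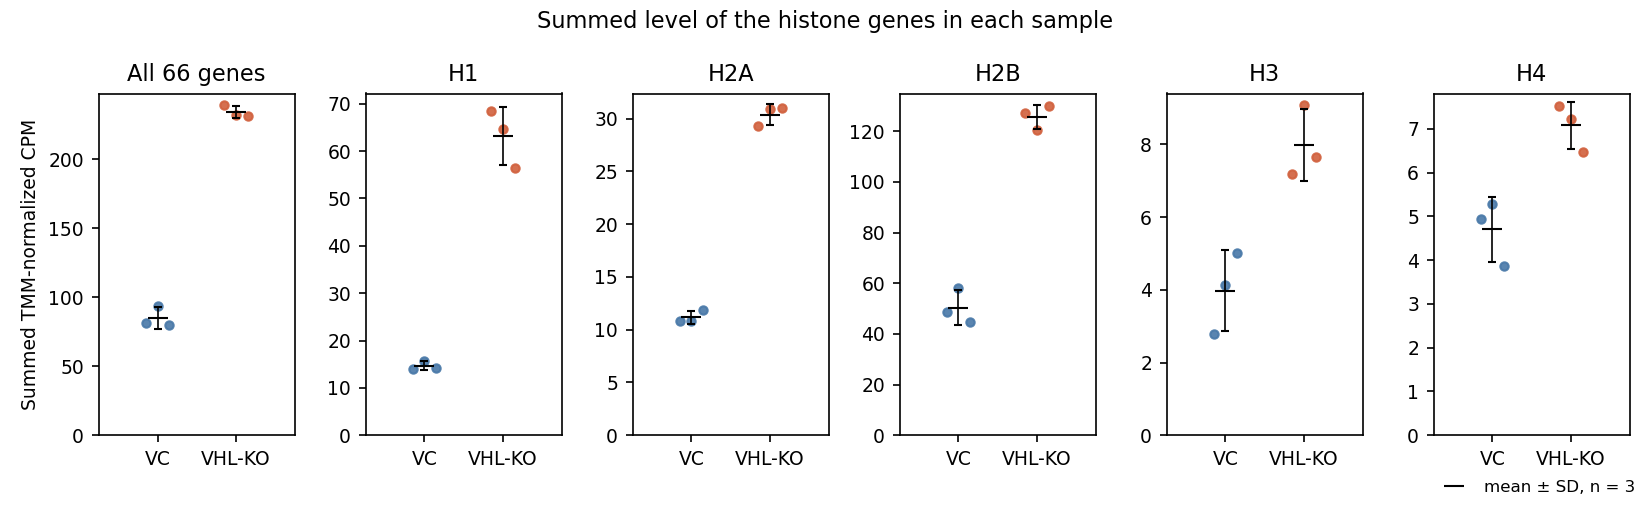
Summed TMM-normalized CPM (y axes, starting at 0) of all 66 histone genes and of each class in the VC and VHL-KO samples, with points for samples and bars for mean ± SD (n = 3). The sum of all genes lay between 79.7 and 93.9 CPM in VC and between 231 and 239.5 CPM in VHL-KO samples.

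The sum was carried by few genes and hid changes in both directions. The 4 most abundant members, H2BC12, H1-2, H2BC5 and H2AC6, gave 66.3% of all member counts in VC and 82.0% in VHL-KO samples. Their own sum was 3.42-fold higher in VHL-KO, and that of the other 62 genes was 1.47-fold higher. Without the 15 most abundant members, the remaining 51 summed to 9.75, 16.2 and 10.98 CPM in VC and to 7.94, 9.08 and 8.07 CPM in VHL-KO samples. Members are ranked here by their mean over all samples, so a gene that rises also moves up, and the lower sum of the others is partly set by this choice. Ranked by VC level alone, an alternative chosen after the data were seen, the 51 others summed to 9.55, 15.5 and 10.5 CPM in VC and to 11.2, 11.6 and 12.01 CPM in VHL-KO samples, with overlap.

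Of the 66 members, 40 had enough reads to be tested, and of these 13 were called higher, 9 lower and 18 neither. Over all 17401 tested genes, 59.7% were called, 28.5% as higher and 31.2% as lower. The members' shares were 32.5% higher and 22.5% lower, and shares this near the background are no result about histone genes as a group. Their median log2 fold change was -0.16, beside -0.01 over all tested genes. This holds for the fit without offsets, since GC and length offsets gave a median of -0.76, beside -0.04 over all genes, with 17 of the 40 called lower. Since 10 reads in 1 sample were enough, a member could pass on the reads of 1 group alone, so these counts describe the tested members and not all 66. With at least 10 reads required in every sample, 16 members were left, 12 called higher and 0 lower, but this filter itself removes members that fell to few reads, among them all 9 called lower. The unadjusted p-value was under 0.05 for 13 members with higher and 10 with lower levels, and DESeq2 called 13 higher and 8 lower. Where a group of members is given below with 0 called lower, the count was also 0 with DESeq2 and at an unadjusted p under 0.05. With GC and length offsets, 1 of the 15 most abundant members and 2 HIST2 members were called lower, and 0 of those annotated past the stem-loop.

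Of the 15 most abundant members, 11 were called higher, 0 lower and 4 neither. Of the 25 tested members outside these, 2 were called higher, 9 lower and 14 neither. Over all tested genes 28.5% were called higher and 31.2% lower. Since the rank includes VHL-KO values, it does not separate level from change. By VC level alone, the first 15 had 9 called higher, 1 lower and 5 neither, and the others 4 higher, 8 lower and 13 neither. Levels were low in general, since 8 members reached 100 reads in any sample.

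**Figure D2:**
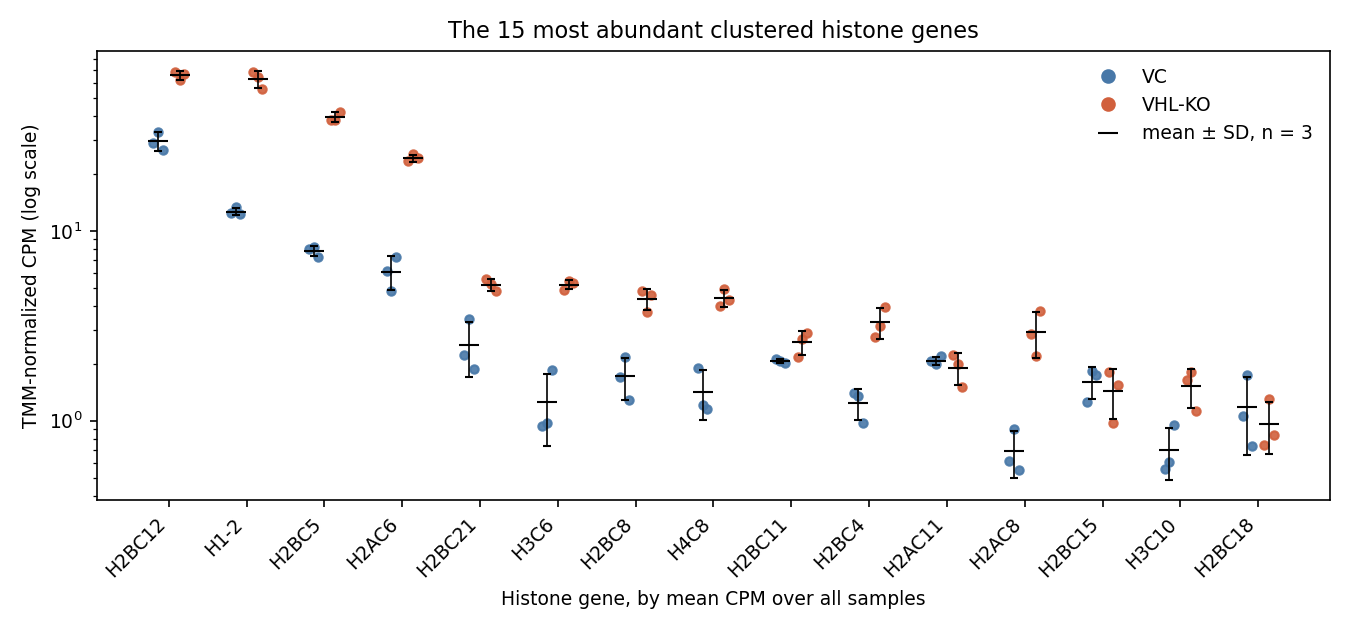
TMM-normalized CPM (y axis, log scale) of the 15 most abundant clustered histone genes (x axis, by mean level), with points for samples and bars for mean ± SD (n = 3 each). H2BC12, H1-2, H2BC5 and H2AC6 were the highest, and for each of them the VHL-KO samples lay above the VC samples.

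H1-2, a linker histone gene (ENSG00000187837.4) at chr6:26055740-26056470 on the minus strand, was at 12.4, 13.3 and 12.2 CPM in VC and at 68.2, 64.1 and 55.5 CPM in VHL-KO samples. The VHL-KO samples were all several-fold above the VC samples. This gave a log2 fold change of 2.31 (standard error 0.12, Benjamini-Hochberg adjusted p = 2.61e-14 in the edgeR quasi-likelihood test), and one of 1.58 with GC and length offsets. The other H1 genes went the other way or had few reads. H1-5 had 23, 28 and 20 reads in VC samples and 0 in each VHL-KO sample, which is at least 16.2-fold lower from a floor of 3 counts over the group (Benjamini-Hochberg adjusted p = 1.70e-05 in the edgeR quasi-likelihood test). H1-4 was at 0.820, 1.11 and 1.24 CPM in VC and at 0.299, 0.510 and 0.797 CPM in VHL-KO samples. The highest VHL-KO sample of H1-4 was close to the lowest VC sample. Its log2 fold change of -1.002 (standard error 0.42) had a Benjamini-Hochberg adjusted p of 0.0436 in the edgeR quasi-likelihood test, and of 0.0931 with DESeq2 and 0.0715 with upper quartile factors. Its call also ended when a single sample was left out, with edgeR adjusted p-values of 0.0995 for VC 2, 0.181 for VC 3, 0.180 for VHL-KO 1 and 0.0731 for VHL-KO 2. With GC and length offsets the log2 fold change of H1-4 was larger, at -1.86 (adjusted p = 0.000921 from edgeR). H1-3 was not called, with a log2 fold change of -1.86 (standard error 0.96). H1-1 had no reads and H1-6, known for its expression in testis, had 3 reads in VC replicate 3 and 0 elsewhere. As a share of all H1 counts, H1-2 made up 86.0% in VC and 99.1% in VHL-KO samples.

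H2B was the class with the most reads. Of its 13 tested members 6 were called higher and 1 lower, beside 28.5% and 31.2% of all tested genes, a difference that was not tested. H2BC12 (ENSG00000197903.8), at chr6:27146361-27146855 on the minus strand, had the highest level of all members in VC, at 29.1, 33.2 and 26.6 CPM, and was at 68.7, 62.1 and 66.7 CPM in VHL-KO samples. H2BC5 (ENSG00000158373.8), at chr6:26158122-26171349 on the plus strand, was at 7.996, 8.18 and 7.30 CPM in VC and at 38.1, 38.4 and 42.4 CPM in VHL-KO samples. Replicates of each of these genes lay close together and the groups were far apart. The log2 fold changes were 1.15 for H2BC12 (standard error 0.11, adjusted p = 1.72e-09) and 2.34 for H2BC5 (standard error 0.12, Benjamini-Hochberg adjusted p = 8.46e-14), in the edgeR quasi-likelihood test. With GC and length offsets the log2 fold change of H2BC12 fell to 0.27 (adjusted p = 0.00449 from edgeR), also with the replicate block added, and that of H2BC5 to 2.03. Per kilobase of exon, H2BC12 was above H2BC5 in both groups, at 59.8 and 9.09 CPM per kb in VC and at 133 and 46.0 CPM per kb in VHL-KO cells.

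H2BC21 was at 2.23, 3.43 and 1.87 CPM in VC and at 5.54, 5.24 and 4.83 CPM in VHL-KO samples. H2BC8 was at 1.70, 2.15 and 1.29 CPM in VC and at 4.83, 3.75 and 4.60 CPM in VHL-KO samples. H2BC4 was at 1.41, 1.35 and 0.975 CPM in VC and at 2.77, 3.15 and 3.99 CPM in VHL-KO samples. In these genes too, every VHL-KO sample was above every VC sample, with log2 fold changes of 1.06, 1.37 and 1.41 and standard errors of 0.22, 0.23 and 0.26. H2BC6, the remaining H2B gene called higher, had 10, 24 and 16 reads in VC samples and 39, 32 and 16 in VHL-KO samples, with overlapping groups, and its call ended without VC replicate 1 or VHL-KO replicate 1. H2BC17 was the H2B gene called lower, with 8, 12 and 13 reads in VC samples and 0, 3 and 0 in VHL-KO samples, a ratio of 7.52 with a counting interval from 2.36 to 38.3. Its call ended when VC 2, VC 3, VHL-KO 1 or VHL-KO 3 was left out, with adjusted p-values between 0.0521 and 0.0817 from edgeR.

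Of the abundant H2B genes, 3 had no call. H2BC11 was at 2.11, 2.05 and 2.00 CPM in VC and at 2.17, 2.69 and 2.91 CPM in VHL-KO samples. H2BC15 was at 1.26, 1.82 and 1.74 CPM in VC and at 1.80, 0.973 and 1.55 CPM in VHL-KO samples. H2BC18 was at 1.05, 1.75 and 0.738 CPM in VC and at 0.749, 1.30 and 0.844 CPM in VHL-KO samples. The groups of H2BC15 and H2BC18 overlapped, while every VHL-KO sample of H2BC11 was narrowly above every VC sample. The log2 fold changes were 0.33 for H2BC11, -0.14 for H2BC15 and -0.29 for H2BC18, with standard errors of 0.23, 0.30 and 0.38.

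H2AC6 (ENSG00000180573.10), at chr6:26124145-26139116 on the plus strand, had the most reads of the H2A genes, at 6.15, 4.85 and 7.30 CPM in VC and 23.2, 25.3 and 24.01 CPM in VHL-KO samples. H2AC8 was at 0.615, 0.909 and 0.553 CPM in VC and at 2.85, 2.18 and 3.799 CPM in VHL-KO samples. Both had no overlap between groups. Their log2 fold changes were 1.98 (standard error 0.15, adjusted p = 5.36e-11) and 2.09 (standard error 0.30, Benjamini-Hochberg adjusted p = 2.03e-06), in the edgeR quasi-likelihood test. H2AC11 was at 2.05, 1.99 and 2.19 CPM in VC and at 2.21, 1.99 and 1.501 CPM in VHL-KO samples, with overlap and a log2 fold change of -0.12 (standard error 0.25). It had no call, but with GC and length offsets it was called lower, at -1.12 (adjusted p = 0.000418 from edgeR).

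The 3 H2A genes called lower had few reads. H2AC12 had 10, 6 and 9 reads in VC samples and 1, 0 and 0 in VHL-KO samples, a ratio of 17.1 with a counting interval from 2.80 to 702. H2AC14 had 10, 12 and 8 reads in VC samples and 2, 0 and 0 in VHL-KO samples, a ratio of 10.3 with a counting interval from 2.60 to 88.6. H2AC16 had 9, 17 and 6 reads in VC samples and 0, 1 and 2 in VHL-KO samples, a ratio of 7.29 with a counting interval from 2.28 to 37.2. In all 3 genes every VC sample had more reads than any VHL-KO sample, and the intervals were wide. H2AC12 was below the minimum of 10 reads without VC replicate 1 and H2AC16 without VC replicate 2, and the call on H2AC16 ended without VHL-KO replicate 1.

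Among the H3 genes, H3C6 was at 0.937, 0.976 and 1.84 CPM in VC and at 4.90, 5.42 and 5.30 CPM in VHL-KO samples. H3C10 was at 0.556, 0.606 and 0.948 CPM in VC and at 1.65, 1.81 and 1.13 CPM in VHL-KO samples. The groups of H3C6 were far apart and those of H3C10 close, with log2 fold changes of 2.03 (standard error 0.25) and 1.105 (standard error 0.35), and the call on H3C10 ended in the fit with both a replicate block and GC and length offsets (0.84, adjusted p = 0.0639 from edgeR). H3C2 was called lower, with 14, 23 and 19 reads in VC samples and 0, 6 and 4 in VHL-KO samples and a log2 fold change of -1.89 (standard error 0.73). Its Benjamini-Hochberg adjusted p in the edgeR quasi-likelihood test was 0.0293, and 0.113 with VC 2 and 0.117 with VHL-KO 1 left out. The other 5 tested H3 genes were not called.

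Among the H4 genes, H4C8 was at 1.90, 1.21 and 1.16 CPM in VC and at 4.01, 4.91 and 4.32 CPM in VHL-KO samples. H4C1 had 19, 22 and 26 reads in VC samples and 6, 5 and 2 in VHL-KO samples, and H4C2 had 8, 19 and 11 reads in VC samples and 1, 2 and 2 in VHL-KO samples. The groups of these 3 genes did not overlap, with H4C8 high and the other two low in VHL-KO cells. The log2 fold changes were 1.62 for H4C8 (standard error 0.24, adjusted p = 2.53e-06), -1.81 for H4C1 (standard error 0.59, adjusted p = 0.0105) and -2.33 for H4C2 (standard error 0.84, Benjamini-Hochberg adjusted p = 0.0203), in the edgeR quasi-likelihood test. With GC and length offsets, H4C1 and H4C2 were at -2.75 and -3.09. The call on H4C2 ended without VC replicate 2 or VHL-KO replicate 1. H4C14 was called higher with 12, 8 and 9 reads in VC samples and 37, 15 and 6 in VHL-KO samples, so that VHL-KO replicate 1 stood highest and VHL-KO replicate 3 lay within the VC range in CPM. Its call ended without VHL-KO replicate 1, without VC replicate 2 or 3, with library size as the only scaling, and with the replicate block, with or without GC and length offsets. When VC 2 or VHL-KO 1 was left out, 4 members in all were called lower in place of 9, namely H1-5, H2AC12, H2AC14 and H4C1.

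**Figure D3:**
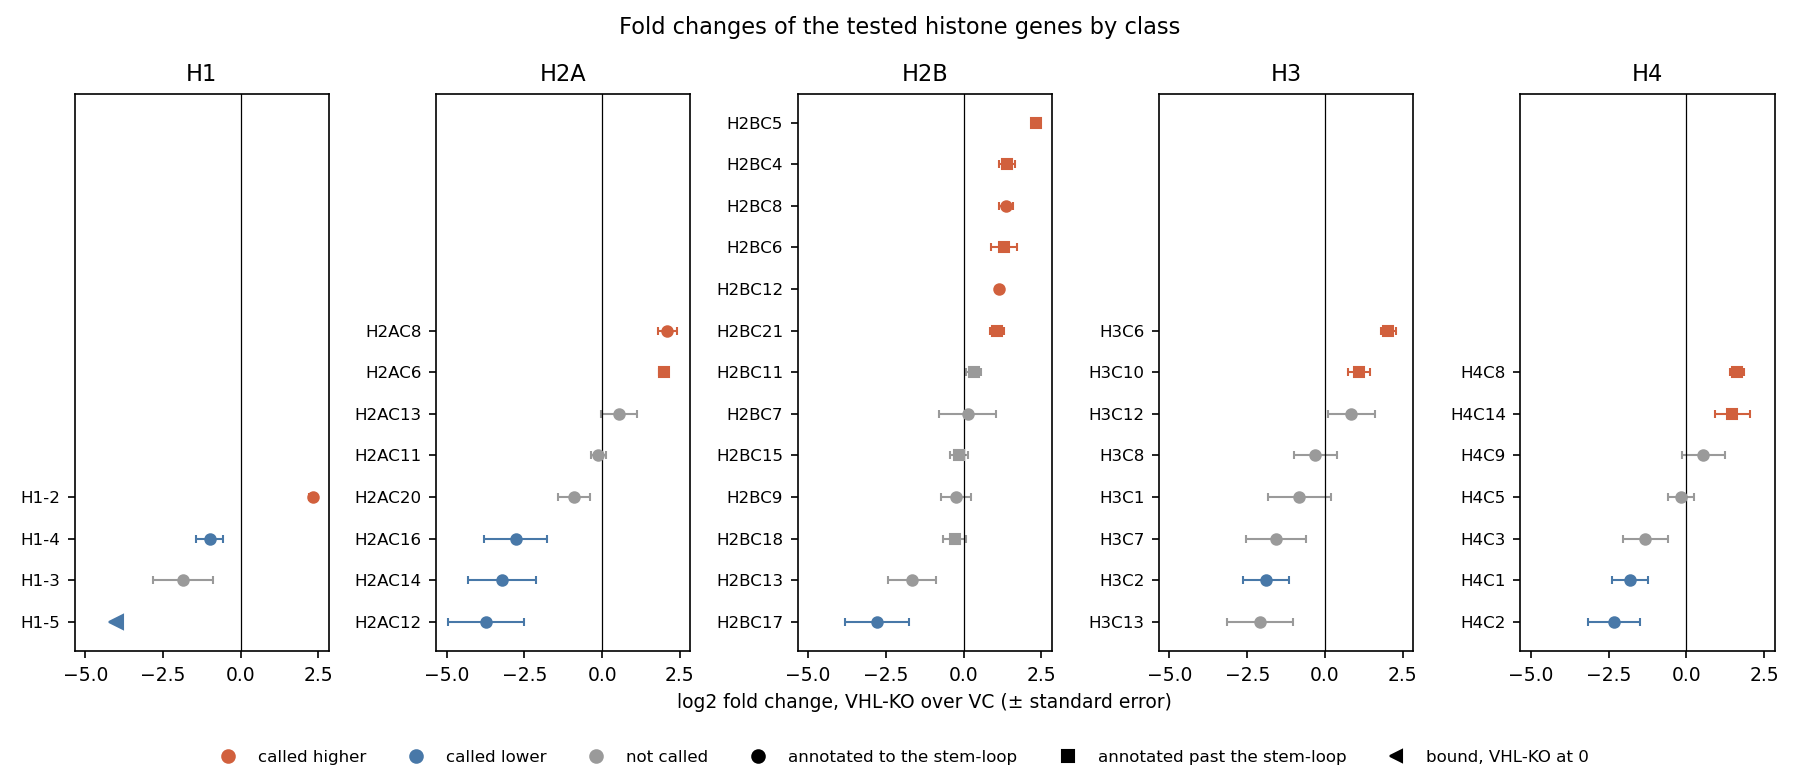
Log2 fold change of VHL-KO over VC (x axes, ± standard error) of the 40 tested histone genes in 5 panels by class, colored by call, with squares for genes annotated past the stem-loop. H1-5 is drawn at the bound that 0 reads in VHL-KO allow, and no gene drawn as a square was called lower.

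For 14 of the 66 members the annotation ran more than 100 bases past the stem-loop, and for 52 it ended there. Of the 12 tested members annotated past the stem-loop, 9 were called higher (75.0%), 0 lower and 3 neither, with a median log2 fold change of 1.36. Of the 28 tested members that ended at the stem-loop, 4 were called higher (14.3%), namely H1-2, H2BC12, H2BC8 and H2AC8, while 9 were called lower (32.1%), with a median of -0.95. Over all tested genes the shares were 28.5% higher and 31.2% lower. With GC and length offsets 17 members were called lower, 0 of them annotated past the stem-loop. Members called higher also had longer exons (median 1668 bases) of lower GC content (47.9%) than members called lower (476 bases and 58.5%). The 3′ ends were compared after the values had been seen, and their difference was not tested. Annotated end and level went together, since 10 of the 15 most abundant members were annotated past the stem-loop, and among these 15, 7 of the 10 longer and 4 of the 5 shorter genes were called higher. The sum of the longer genes was 26.3, 27.5 and 26.6 CPM in VC and 87.9, 91.3 and 92.3 CPM in VHL-KO samples, 3.38-fold higher. That of the shorter genes was 54.97, 66.5 and 53.1 CPM in VC and 152, 141 and 139 CPM in VHL-KO samples, 2.47-fold higher. Neither sum overlapped between groups. The annotation release and any poly(A) selection behind the counts are not given in the sources used here, so whether reads came from mRNAs with a stem-loop end or a poly(A) tail was not tested. Of the members, 42 had the same gene version in release 44 as in the count table and 24 another. Most members annotated past the stem-loop had another version. Among them were H2BC4, H2BC5, H2BC21, H3C10 and H4C14, called higher, and H2BC15 and H2BC18, not called. Whether the annotation used for counting also ran past the stem-loop in these genes was not tested. By stem-loop sequence, of the 38 members that share that of H1-2, 7 were called higher, 7 lower and 10 neither, and 14 were untested. Of the 9 members that share that of H2BC12, 3 were called higher, 0 lower and 3 neither, and 3 were untested. These few genes were not tested against each other.

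Many H2A and H2B genes face each other across a short shared promoter, and 11 such pairs were found with 170 to 251 bases between their starts. In 6 pairs both genes could be tested. In 2 of these, H2BC4 with H2AC6 and H2BC8 with H2AC8, both genes were called higher. Of all tested genes, taken singly, 28.5% were called higher and 31.2% lower. Whether paired genes went together more often than other genes was not tested. In 1 pair the genes were called in opposite directions, with a log2 fold change of 1.15 for H2BC12 and reads falling from 25 to 1 for H2AC12. H2BC21 was called higher while its partner H2AC20 was not called, at -0.91 (standard error 0.53). H2BC11 with H2AC11 and H2BC13 with H2AC13 had no call. With GC and length offsets, H2AC20 was called lower while H2BC21 stayed higher, at 1.01, so that this pair too had opposite calls. H2AC11 and H2BC13 were also called lower with these offsets, and H2BC12 was at 0.27. In pairs with 1 tested gene, H2BC15 (log2 fold change -0.14) and H2BC7 (0.13) had no call. H2BC17 was called lower beside H2AC17, which had 0, 0 and 3 reads in VC samples and 0 in each VHL-KO sample. Exons of H3C12 on the same strand cover 71.0% of H2AC17, so reads may have been left uncounted as ambiguous, which was not tested. H2AC14 was called lower, and its untested partner H2BC14 had 1, 5 and 6 reads in VC samples and 0 in each VHL-KO sample, at least 2.74-fold lower from the floor of 3 counts over the group.

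**Figure D4:**
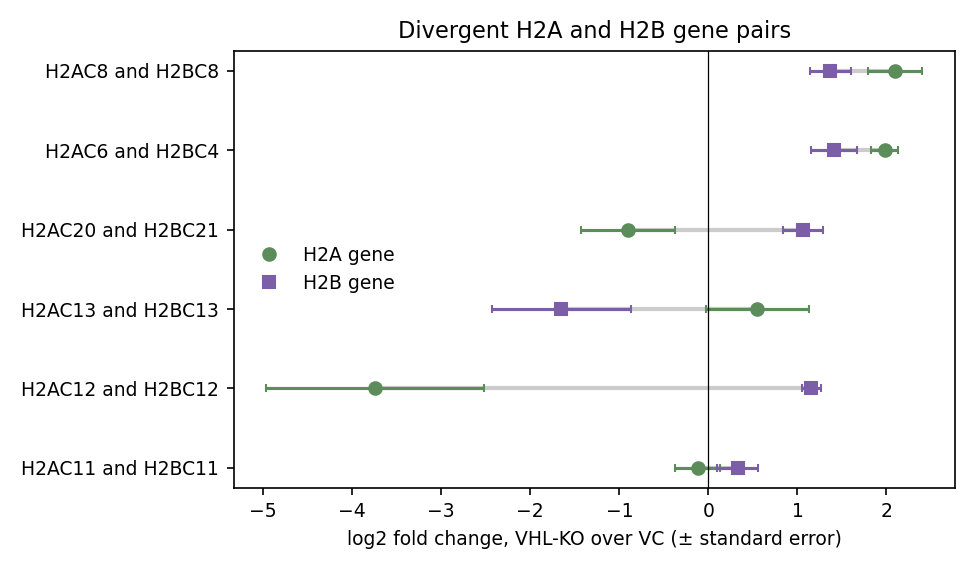
Log2 fold change of VHL-KO over VC (x axis, ± standard error) of both genes in the 6 divergent H2A and H2B pairs (y axis) with both genes tested, circles for H2A and squares for H2B. The pairs H2BC4 with H2AC6 and H2BC8 with H2AC8 lay to the right of 0 for both genes, while H2BC12 (1.15) and H2AC12 (-3.74, fitted on 25 and 1 reads) were on opposite sides.

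Shared promoters of 3 pairs are shown because in turn both genes were called higher, 1 gene was called higher, or 1 gene was called lower while its partner had no reads left. Bases between the starts were read from RefSeq promoter sequences on GRCh38.p14 and are given 5′ to 3′ on the minus strand. The region of H2BC4 and H2AC6 is chr6:26123927-26124144, that of H2BC21 and H2AC20 is chr1:149886683-149886917, and that of H2AC14 and H2BC14 is chr6:27814778-27815021. Capitals mark matches, on either strand, to the motif CCAAT, the TATA box letters TATAAA and the octamer ATTTGCAT, none of which overlap here.
H2BC4 and H2AC6: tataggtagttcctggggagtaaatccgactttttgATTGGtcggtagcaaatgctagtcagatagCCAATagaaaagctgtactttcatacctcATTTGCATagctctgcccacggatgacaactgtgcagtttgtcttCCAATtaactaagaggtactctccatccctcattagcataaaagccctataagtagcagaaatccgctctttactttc
H2BC21 and H2AC20: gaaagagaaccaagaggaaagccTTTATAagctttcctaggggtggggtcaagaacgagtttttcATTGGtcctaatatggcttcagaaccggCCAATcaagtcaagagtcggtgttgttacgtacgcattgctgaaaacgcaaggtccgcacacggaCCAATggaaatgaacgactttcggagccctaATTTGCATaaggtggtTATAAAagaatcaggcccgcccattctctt
H2AC14 and H2BC14: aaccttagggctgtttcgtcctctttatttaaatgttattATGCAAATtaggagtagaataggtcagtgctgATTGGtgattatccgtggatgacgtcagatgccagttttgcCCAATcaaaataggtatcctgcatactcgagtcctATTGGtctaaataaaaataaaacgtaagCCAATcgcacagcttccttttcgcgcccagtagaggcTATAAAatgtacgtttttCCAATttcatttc
The H2BC4 and H2AC6 region held CCAAT 3 times and the octamer 1 time, the H2BC21 and H2AC20 region CCAAT 3 times, TATAAA 2 times and the octamer 1 time, and the H2AC14 and H2BC14 region CCAAT 5 times and the others 1 time each.

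The same motifs were counted on both strands in the 250 bases before the start for the 61 members matched to a RefSeq promoter, all but H2AC12, H3C11, H3C12, H4C1 and H4C3. CCAAT was found in 52 of 61 members and in 32.0% of all 35116 promoters, TATAAA in 41 of 61 and 10.7%, and ATTTGCAT in 26 of 61 and 1.63%. The octamer was largely a feature of H2A and H2B genes, in 11 of 15 and 14 of 17 promoters, with 1 of 11 in H3 and 0 in H1 and H4. CCAAT was in all matched promoters of H1, H2A, H2B and H3 but in 3 of 12 of H4. Among members called higher, called lower and not called, CCAAT was in 11 of 13, 6 of 7 and 15 of 16, TATAAA in 10 of 13, 5 of 7 and 9 of 16, and the octamer in 7 of 13, 3 of 7 and 6 of 16. These shares were not tested against each other.

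By position, the members fell into 3 segments on chromosome 6 and 1 on chromosome 1. The segment chr6:25723397-26285638 held 34 members, 21 of them tested, with 9 called higher and 4 lower, where 28.5% and 31.2% of all tested genes were. In chr6:27125897-27147562, with 5 members, all tested, 1 was higher and 1 lower, and in chr6:27807479-27893891, with 9 of 16 members tested, 1 was higher and 4 lower. The HIST2 segment, chr1:149782689-149887965, had 11 members, 5 of them tested, with 2 higher, 0 lower and 3 not called. Genes called in opposite directions thus lay within the same segments, such as H1-2 and H1-4.

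The 26 untested members included 7 with no reads in any sample (H1-1, H2AC1, H2AC7, H2BC1, H2BC3, H3C4 and H3C15) and 19 with at most 9 reads in any sample. A count of 0 need not mean absence here, since exons of another gene on the same strand cover 85.3% of H2AC7 and 96.6% of H3C4, and all windows of H3C15 occur elsewhere. Among the 19, H2AC18 had 0, 0 and 1 reads in VC samples and 5, 8 and 7 in VHL-KO samples, a ratio of 29.3 with a counting interval from 4.68 to 1213, but its sequence is wholly shared with H2AC19. H2AC21 and H4C13 each had 12 reads over VC and 0 over VHL-KO samples, at least 2.74-fold lower from the same floor.

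Near-identical copies limit what these counts can say of single genes, since only reads mapped to 1 place were kept. In 16 members at least 20% of the 31-base windows of their exons occurred more than once in the genome. H2BC12 had 71.0% of its windows in this state, 61.9% in common with H2BC12L on chromosome 21, H2BC18 had 80.8%, and H2AC18, H2AC19, H3C14, H3C15, H4C14 and H4C15 had all of theirs. Counts of members that shared windows were therefore also summed. H2BC12 with H2BC6 had a log2 fold change of 1.16 (standard error 0.11) and H4C14 with H4C15 one of 1.27 (standard error 0.53), both still called. H2AC14 with H2AC13 had -0.35 (standard error 0.48), so that the call on H2AC14 did not carry over to the sum. Exons of H2BC4, H2BC6 and H4C8 overlap those of genes on the opposite strand, over 30.9% for H2BC4 and 28.2% for H2BC6, and whether counting used the strand is not stated.

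Base composition and exon length moved with the fold changes of all genes. Tested genes with under 40% GC in their exons had a median log2 fold change of -0.47 and those with 60% or more one of 0.52. The members' median GC content was 56.2%, against 47.9% over all tested genes. By length, tested genes with under 800 exonic bases had a median log2 fold change of 0.63. Those with 5000 or more had one of -0.19. The members' median exonic length was 499.5 bases, against 4476 over all tested genes. GC and length offsets in the fit brought the GC medians to -0.01 and -0.08 and the length medians to 0.06 and -0.06. With them the members called higher remained the same 13, while 17 were called lower in place of 9. Several of the 13 kept their call with a smaller change, with log2 fold changes of 0.27 in place of 1.15 for H2BC12, 1.58 in place of 2.31 for H1-2, 1.35 in place of 2.09 for H2AC8 and 0.78 in place of 1.37 for H2BC8. The 9 members called lower all had larger changes with the offsets, such as -2.66 in place of -1.89 for H3C2 and -3.63 in place of -2.78 for H2BC17. The 8 added calls were H1-3, H2AC11, H2AC20, H2BC13, H3C7, H3C13, H4C3 and H4C5. Beyond this, the part of base composition and exon length in the histone values was not tested.

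Of 24 genes linked to histone mRNA synthesis, processing or decay, all tested, 16 were called lower, 0 higher and 8 neither by edgeR. The count of 0 higher also held at an unadjusted p under 0.05 and with DESeq2. Over all tested genes 31.2% were called lower. The list includes the cell cycle genes CCNE1, CCNE2, CDK2 and CCNA2, all called lower, so it is not specific to histone mRNA. Their median log2 fold change was -0.81. With GC and length offsets, 18 were called lower and 2 higher. SLBP, which binds the stem-loop, was at 84.9, 80.3 and 88.7 CPM in VC and at 36.7, 39.2 and 40.4 CPM in VHL-KO samples. NPAT, the coactivator of histone gene transcription, was at 5.68, 4.68 and 6.93 CPM in VC and at 1.87, 1.90 and 3.19 CPM in VHL-KO samples. Every VHL-KO sample of both genes was below every VC sample, with log2 fold changes of -1.13 (standard error 0.10, adjusted p = 5.05e-10) and -1.32 (standard error 0.23, Benjamini-Hochberg adjusted p = 2.30e-05), in the edgeR quasi-likelihood test. The H4 gene regulator HINFP had a log2 fold change of 0.02 and was not called.

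LSM11, LSM10 and ZNF473 encode proteins of or bound to the U7 snRNP, the particle that directs cleavage after the stem-loop. LSM11 was at 12.4, 8.82 and 13.1 CPM in VC and at 4.98, 4.03 and 4.83 CPM in VHL-KO samples. LSM10 was at 61.2, 71.7 and 59.98 CPM in VC and at 60.5, 51.1 and 55.5 CPM in VHL-KO samples, and ZNF473 at 5.77, 6.43 and 6.87 CPM and 5.50, 5.47 and 6.19 CPM. LSM11 was clearly separated between groups, while LSM10 and ZNF473 overlapped. The log2 fold changes were -1.31 for LSM11 (standard error 0.18) and, without a call, -0.21 for LSM10 (standard error 0.10) and -0.15 for ZNF473 (standard error 0.17). LSM10 was called lower, at -0.80, with GC and length offsets, and at -0.40 when scaled by library size alone.

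CASP8AP2, a factor of histone gene transcription and processing, was at 6.09, 4.27 and 7.06 CPM in VC and at 2.84, 2.55 and 4.22 CPM in VHL-KO samples. ERI1, an exonuclease that trims and degrades histone mRNA, was at 16.7, 15.4 and 22.1 CPM in VC and at 6.44, 5.98 and 5.44 CPM in VHL-KO samples. The VHL-KO samples were below all VC samples for both, narrowly for CASP8AP2. The log2 fold changes were -0.87 (standard error 0.22) and -1.60 (standard error 0.16), and the call on CASP8AP2 ended with GC and length offsets (-0.37, adjusted p = 0.107 from edgeR). Cyclin genes CCNA2 and CCNE2 had the largest changes of the list, at -2.60 and -2.56.

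**Figure D5:**
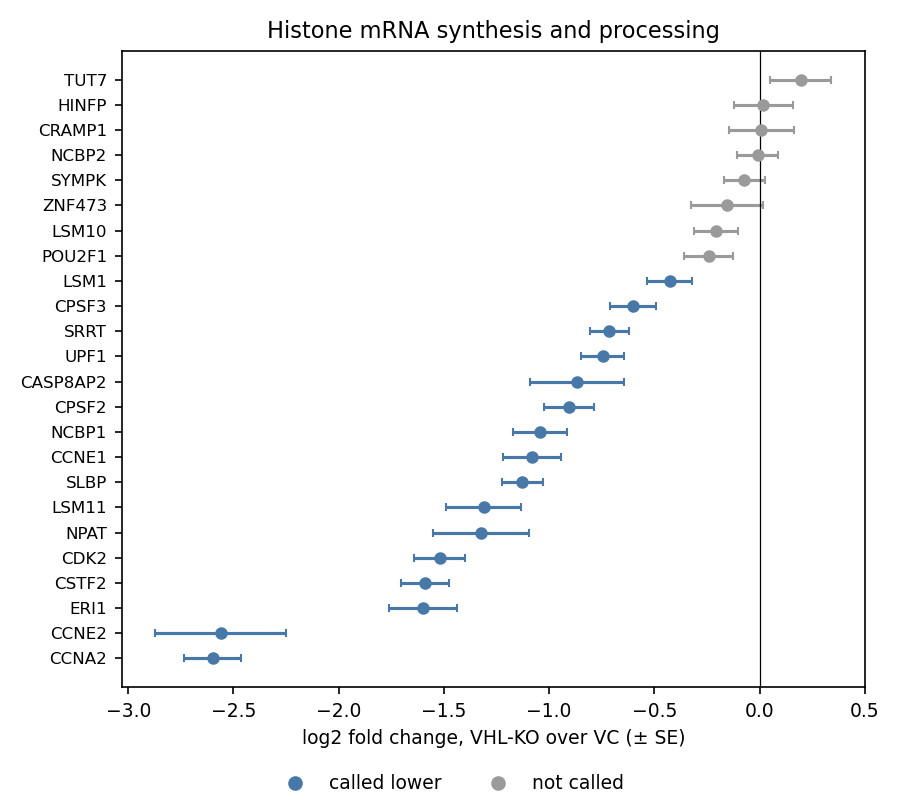
Log2 fold change of VHL-KO over VC (x axis, ± standard error) of the 24 genes linked to histone mRNA synthesis, processing or decay, cell cycle genes included (y axis), colored by call. Of these, 16 were called lower and 0 higher, and CCNA2 (-2.60) and CCNE2 (-2.56) lay farthest from 0.

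Of 10 tested replication-independent histone genes, which are expressed outside S phase as well, 7 were called lower and 3 higher, beside 31.2% and 28.5% of all tested genes, and 6 lower and 2 higher with GC and length offsets. Most give polyadenylated mRNA, while H2AX was among the 9 other genes in which the stem-loop was found. H3-3B, which encodes the H3.3 variant, was at 530, 542 and 564 CPM in VC and at 334, 343 and 348 CPM in VHL-KO samples. H2AZ1 was at 491, 533 and 499 CPM in VC and at 199, 197 and 217 CPM in VHL-KO samples, and MACROH2A1 at 262, 278 and 258 CPM and at 124, 133 and 119 CPM. All 3 genes were lower without overlap, with log2 fold changes of -0.67, -1.31 and -1.09 and standard errors of 0.08, 0.09 and 0.09. CENPA, the H3 variant of centromeres, had a log2 fold change of -1.86 and H2AX, which is phosphorylated at DNA breaks, one of -1.11. With GC and length offsets that of H2AX was -1.87 (adjusted p = 1.47e-15 from edgeR). Among the genes called higher were H2AJ and H1-10, at 0.86 and 0.73. The list as a whole summed to 2016, 2166 and 2007 CPM in VC and to 1278, 1295 and 1303 CPM in VHL-KO samples, so its sum was lower while that of the clustered genes was higher. Of 4 other tested histone genes of HIST clusters, H2AW was called higher (1.44) and H3-2 lower (-2.47), and H2BU1 and H4-16 had no call. The names these genes carry in the count table fall outside the choice by symbol, so they are not among the members.

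Of 21 tested genes for chaperones and the acetyltransferase that handle new histones, 15 were called lower, against 31.2% over all tested genes, and UBN1, DAXX and ATRX higher, against 28.5%. The groups of UBN1 overlapped, and 2 in place of 3 were higher with library size as the only scaling and with VC 1 or VHL-KO 3 left out. NASP, a chaperone of H3 and H4, was at 328, 288 and 275 CPM in VC and at 142, 138 and 138 CPM in VHL-KO samples. HAT1, which acetylates new H4, was at 49.4, 38.4 and 65.7 CPM in VC and at 12.1, 13.5 and 15.7 CPM in VHL-KO samples. Both were far lower in every VHL-KO sample, with log2 fold changes of -1.09 (standard error 0.09) and -1.90 (standard error 0.15). MMS22L and HJURP had log2 fold changes of -1.91 and -1.53 and SSRP1 one of -0.79. NAP1L1, the most abundant of these genes, had -0.13 (standard error 0.11) and was not called. It was called higher with GC and length offsets (0.34, adjusted p = 0.000269 from edgeR), and lower with VC 2 left out (-0.26, adjusted p = 0.00363) and with library size as the only scaling (-0.32, adjusted p = 0.023).

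Of 33 tested S phase genes, 32 were called lower, beside 31.2% of all tested genes. Their median log2 fold change was -1.74, and among them were MCM7 (-1.43), TK1 (-1.16), TYMS (-2.00), DTL (-2.53), MCM10 (-3.23) and E2F8 (-4.07).

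RNAs that lack a poly(A) tail for other reasons were also examined. Of their 29 entries in the table, which cover 23 genes, 13 had no reads in any sample, RN7SK, RMRP and RPPH1 among them. Some of these genes, such as RMRP and RPPH1, have more than 1 entry, so reads may have been left uncounted as ambiguous, which was not tested. These zeros therefore do not show how such RNA was captured. Of the 4 tested genes, SCARNA7 and SNORD3A were called higher, beside 28.5% of all tested genes, and SNORA73B and RN7SL1 were not called. SCARNA7 was at 1.44, 1.08 and 0.922 CPM in VC and at 10.7, 7.04 and 7.32 CPM in VHL-KO samples, a log2 fold change of 2.87 (standard error 0.23). SNORD3A was at 5.54, 6.83 and 3.27 CPM in VC and at 7.52, 7.09 and 12.3 CPM in VHL-KO samples. SCARNA7 was well separated and SNORD3A barely so, and the call on SNORD3A ended without VHL-KO replicate 3 and with GC and length offsets. RN7SL1 was at 78.2, 35.5 and 59.1 CPM in VC and at 67.7, 53.0 and 47.5 CPM in VHL-KO samples, with wide overlap, and its log2 fold change of -0.04 (standard error 0.17) changed sign between settings. RN7SL1 was called lower with GC and length offsets (-1.19, adjusted p = 1.98e-05 from edgeR) and with VC 2 left out (-0.27, adjusted p = 0.0385). With the offsets 1 of the 4 genes was called higher, SCARNA7, and 2 lower, RN7SL1 and SNORA73B.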

How the data were processed

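Counts per gene were deposited by the authors as raw whole-number read counts for 3 VC and 3 VHL-KO samples. Per their methods, the authors trimmed reads with TrimGalore and Cutadapt, kept those of 20 nt or more, mapped them to GRCh38.p13 with STAR, kept uniquely mapped reads with SAMtools and counted them with HTSeq. The annotation release, strandedness and any poly(A) selection are not stated. Here, every gene that reached 10 reads in any sample was fitted in one model in edgeR 4.0.16 (R 4.3.3) with TMM factors and the quasi-likelihood test, with Benjamini-Hochberg adjustment over all genes and a threshold of 0.05. Members were taken by symbol and their counts summed per class and cluster, without a test. Named in full were VHL, the 15 most abundant members, up to 3 members per class with the largest called changes, 7 genes of histone mRNA synthesis, and from each other list the 3 most abundant and the 3 with the largest called changes. Other genes named were chosen after their values were seen, and some genes of the lists are not reported here. The members and lists were chosen with earlier results of these data known. Gene structure, GC content and stem-loops came from GENCODE release 44 on the primary GRCh38 assembly, where 64 members were matched by gene ID and 2 (H2AC18 and H2AC19) by symbol. Ratios with 1 to 3 counts in a group have 95% counting intervals. Alternatives were DESeq2 1.42.0, other scaling factors and read filters, each sample left out in turn, a replicate block, GC and length offsets, and near-identical members summed. No sample was left out of the main comparison.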

Additional observations from a re-analysis of the deposited data

How the results depend on the processing

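The count of members called lower, 9, was 0 with at least 10 reads in every sample, where only 16 members were tested and those that fell to few reads were removed, 17 with GC and length offsets, 15 with the replicate block and these offsets together, and between 4 and 10 when 1 sample was left out, with 4 on leaving out either VC 2 or VHL-KO 1. The members called higher numbered between 11 and 14 in all settings, and no called member changed sign. Processing genes called higher, 0 in the data as reported, were 2 with the offsets, 2 with the block and offsets, and between 0 and 1 with 1 sample left out. The log2 ratio of the summed level, 1.46, was 1.27 when scaled by library size alone and 1.61 without the most abundant member. The log2 ratio of the 51 members outside the 15 most abundant, -0.56, was -0.03 with members ranked by VC level, chosen after the data were seen, and the 15 then had 1 called lower in place of 0. Offsets took H2BC12 from 1.15 to 0.27. Library size alone moved the median of all genes to -0.20 and upper quartile factors to 0.10, from -0.01, and the share of higher genes among those called to 35.8% and 55.03%, from 47.7%. Values that changed sign were all without a call in the data as reported: H2BC15 (0.32 with offsets and 0.32 with block and offsets, -0.34 to 0.0687 with 1 sample left out), H2AC11 (-0.24 to 0.0231), H2BC18 (-0.55 to 0.12), NAP1L1 (0.34 and 0.34, and -0.26 to 0.0183) and RN7SL1 (0.0738 with upper quartile factors, 0.0102 with the block, and -0.27 to 0.25). Their causes were not tested. Over pairs of a gene named by the rule and a setting that still tested it, 24 calls ended and 10 were gained with the sign kept. Nothing in the sample labels besides the number pairs the replicates. Deviations of same-numbered samples correlated at 0.24, -0.14 and 0.08 over 8871 genes. VHL-KO 1 and VHL-KO 3 correlated best with their own number and VHL-KO 2 with VC 3 (0.10). With 3 samples per group these values cannot decide whether samples were paired. With the replicate block, 10284 genes were called in place of 10394, and H4C14 alone of the members lost its call. Depth limits the members with few reads, whose ratios span wide counting intervals. With 3 samples per group of unstated origin, p-values cover the spread between these samples only, and near-identical copies and unstated strandedness blur single genes.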
